A study of Anas platyrhynchos with 16 samples.

Results

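GPX3 and 9 other enzymes that remove superoxide and peroxides were followed in the hypothalamus and pituitary of Shanma ducks (Anas platyrhynchos). The 10 genes were taken by symbol from the 24263 genes of the expression table, and all 10 passed the filter on low counts in every comparison. GPX3 was chosen by a measured value, its p-value between caged and floor-water hypothalamus, which was the smallest of all genes tested. That contrast therefore describes GPX3 and was not tested for it, and the same was applied to the other 9 genes, since their choice was made with those values known. The remaining members were the glutathione peroxidases GPX7 and GPX8, the superoxide dismutases SOD1 and SOD2, catalase (CAT), the peroxiredoxins PRDX1, PRDX3 and PRDX6, and the thioredoxin reductase TXNRD1.

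All ducks were 113 days old, and each tissue and housing had 4 RNA sequencing libraries, 16 in all. Caged ducks had been moved at 110 days of age, 3 days earlier, into 3 cages of 100 × 45 × 50 cm holding 15 birds and received 16 h of light a day. The 15 floor-water ducks stayed in the system that combines floor and water under natural light, so housing and light regimen changed together. Both tissues are mixtures of cell types, so fewer cells of a type and less RNA per cell cannot be told apart in these bulk samples.

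Superoxide, a by-product of respiration, is turned into hydrogen peroxide by superoxide dismutases. Catalase splits hydrogen peroxide directly, glutathione peroxidases reduce peroxides with glutathione, and peroxiredoxins do so with electrons passed on by thioredoxin, which thioredoxin reductase recharges with NADPH. In mammals GPX3 is the secreted, selenium-containing member of its family and is found in plasma, while GPX7 and GPX8 lie in the endoplasmic reticulum and carry cysteine in place of selenocysteine. In the hypothalamus and the pituitary such enzymes protect neurons with a high oxygen demand and cells that fold large amounts of secreted hormone.

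Library totals ranged from 38853215 to 67175356 counts. Growth hormone (GH1) stood at 60219 to 142674 FPKM (a fragment level per transcript length and sequencing depth) in pituitary libraries, and myelin basic protein (MBP) at 1362 to 4133 FPKM in hypothalamus libraries, so each tissue held the marker of its label. The libraries also held transcripts of the other tissue. Over 34 genes restricted to the pituitary, hypothalamus libraries carried a median of 3.34%, 0.153%, 5.97% and 22.3% of the pituitary level in caged libraries 1 to 4, against 1.28%, 0.0699%, 0.225% and 0.373% in floor-water libraries 1 to 4. Over 79 genes restricted to the hypothalamus, pituitary libraries carried 0.191%, 4.18%, 0.252% and 0.165% in caged libraries 1 to 4, against 0.569%, 4.42%, 0.426% and 4.71% in floor-water libraries 1 to 4. Caged hypothalamus library 2 also held 20520 FPKM of transthyretin (TTR), a choroid plexus transcript, while the other hypothalamus libraries held 8.61 to 662 FPKM.

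GPX3 was higher in every caged hypothalamus library than in any floor-water one, and higher again in the pituitary. In caged hypothalamus libraries 1 to 4 its level was 399, 518, 482 and 466 FPKM. In floor-water hypothalamus libraries 1 to 4 it was 240, 263, 249 and 262 FPKM. The lowest caged library thus lay well above the highest floor-water one, and the floor-water libraries differed little among themselves, with a coefficient of variation of 4.46% against 10.7% in the caged ones. The levels averaged 466 ± 50.0 FPKM in caged libraries against 254 ± 11.3 FPKM in floor-water hypothalamus (SD, n = 4 each), and the fold change from the counts was 0.83 ± 0.10 on the log2 scale (SE), or 1.78-fold. The authors' deposited table gives a ratio of mean FPKM of 1.84. GPX3 was chosen by this contrast, so the separation of its groups follows from that choice and is a description. Every other member overlapped between housings in scaled counts, while 5.63% of all 15736 genes tested did not.

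**Figure D1:**
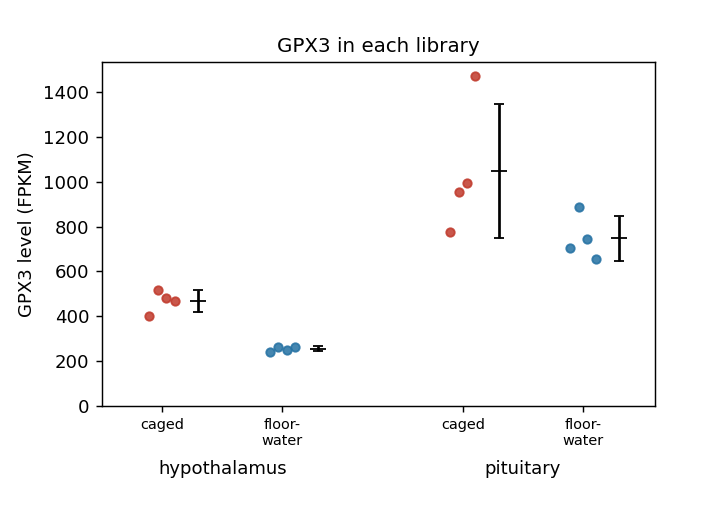
GPX3 level in FPKM (vertical axis, from 0) in each of the 4 libraries of caged and floor-water hypothalamus and pituitary. Points are libraries, and the bars beside them give the mean and SD; the caged hypothalamus libraries (399 to 518 FPKM) lie apart from the floor-water ones (240 to 263 FPKM), while the pituitary groups overlap.

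The pituitary share and the transthyretin level differed between caged hypothalamus libraries. Library 2, which had the most TTR (20520 FPKM) and the lowest pituitary share of the caged group (0.153%), also had the highest GPX3 level of the hypothalamus, at 518 FPKM. Library 4, with the highest share (22.3%) and the least TTR (8.61 FPKM), had 466 FPKM of GPX3. Libraries 1 and 3, with 662 and 130 FPKM of TTR and shares of 3.34% and 5.97%, had 399 and 482 FPKM of GPX3. Without caged library 4 the log2 fold change was 0.83, without caged library 2 it was 0.77, without both it was 0.73, and in a fit that took each library's share as a covariate it was 0.94. These fits are of the contrast GPX3 was chosen by and are given as a description. Some markers of other cell types also averaged higher in caged hypothalamus. Of the sums given here, only that of the fibroblast and meningeal markers did not overlap between housings. The summed level of 9 fibroblast and meningeal markers was 49.8 to 68.5 FPKM in caged against 30.9 to 45.3 FPKM in floor-water libraries, and all 9 were detected. The sum of 7 folliculostellate and pituitary stem cell markers was 21.0 to 90.0 FPKM in caged against 14.2 to 22.8 FPKM in floor-water libraries. It was highest in caged library 4, which had the highest pituitary share. The sum of 10 choroid plexus and ependymal markers was 72.4 to 20572 FPKM against 54.3 to 138 FPKM, with CLDN2 at 0 in both. The 20572 FPKM belonged to caged library 2, where TTR alone was at 20520 FPKM. As a mean of log2(FPKM + 1), these 10 markers were at 2.25 to 3.48 in caged against 1.74 to 2.19 in floor-water libraries. On that scale they did not overlap between housings, nor did the fibroblast and meningeal markers, while the folliculostellate and pituitary stem cell markers did. The part of these cell types, of the pituitary share and of transthyretin-rich tissue in the GPX3 difference was not tested.

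**Figure D2:**
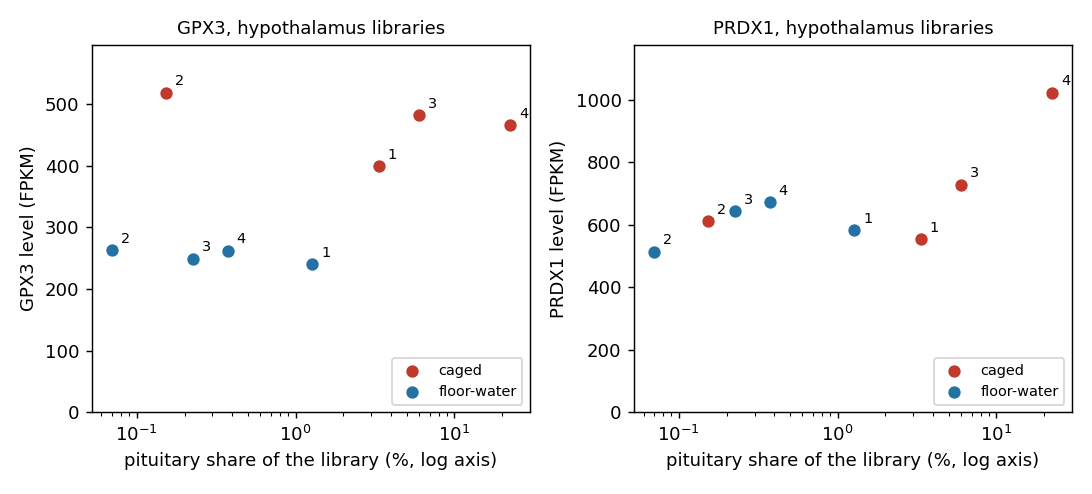
GPX3 (left) and PRDX1 (right) level in FPKM (vertical axes, from 0) in the 8 hypothalamus libraries against the pituitary share of each library in percent (log axis). Points are single libraries with their number, caged in red and floor-water in blue; GPX3 is at 518 FPKM in the caged library with a share of 0.153%, while PRDX1 is highest, at 1022 FPKM, in the caged library with a share of 22.3%.

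In the pituitary, a comparison that played no part in choosing GPX3, the gene again averaged higher in caged ducks, but the libraries overlapped and the difference did not pass the test. Its level was 774, 955, 993 and 1472 FPKM in caged libraries 1 to 4. In floor-water libraries 1 to 4 it was 702, 886, 743 and 657 FPKM. Library 4 of the caged group stood highest, and the lowest caged library lay below the highest floor-water one. The levels averaged 1048 ± 298 FPKM in caged libraries against 747 ± 99.1 FPKM in floor-water pituitary (SD, n = 4 each). The log2 fold change was 0.56 ± 0.21 (SE), with an adjusted p = 0.9996 in edgeR, and GPX3 ranked 349 of 15582 genes by p. Without caged library 4 it was 0.32. The difference between tissues in the housing effect of GPX3 was -0.28 ± 0.25 (pituitary minus hypothalamus, SE), given as a description because it contains the hypothalamus contrast.

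Ordered by mean level, GPX3 ran from caged pituitary over floor-water pituitary and caged hypothalamus to floor-water hypothalamus. The ranges of both pituitary groups overlapped, whereas the other neighbours in this order did not. The pituitary level was above the hypothalamus level by 1.52 ± 0.21 in caged and by 1.78 ± 0.14 in floor-water ducks on the log2 scale (SE), also as a description since these comparisons share libraries with the contrast that singled the gene out. Among the 10 enzymes GPX3 came next after PRDX1 in both pituitary groups. In caged hypothalamus it came after SOD1 and PRDX1, with a range that overlapped that of PRDX6, and in floor-water hypothalamus after PRDX6 and SOD2 as well, with a range that overlapped that of SOD2.

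The 2 other glutathione peroxidases were scarce. GPX7, which in mammals acts on peroxides formed during protein folding, stood at 0.839, 1.07, 0.325 and 0.825 FPKM in caged pituitary libraries 1 to 4 against 0.871, 1.67, 0.886 and 0.929 FPKM in floor-water ones. In the hypothalamus it was at 0.592, 0.534, 0.631 and 0.510 FPKM in caged libraries against 0.788, 0.287, 0.627 and 0.663 FPKM in floor-water libraries. These ranges overlapped between housings in both tissues. GPX8, a membrane protein of the endoplasmic reticulum, was at 2.53, 1.73, 2.43 and 2.70 FPKM in caged pituitary libraries against 2.96, 3.94, 1.55 and 2.27 FPKM in floor-water ones. Its hypothalamus level was 0.474, 0.793, 1.32 and 1.93 FPKM in caged libraries against 1.09, 0.701, 0.879 and 0.590 FPKM in floor-water libraries. The caged hypothalamus library richest in pituitary transcripts was also the highest of the 8 for GPX8. Another entry described as glutathione peroxidase 7, LOC110354061, was at or near 0 in all groups (at most 0.124 FPKM). How reads shared by it and GPX7 were assigned was not tested.

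GPX8 was on average higher in pituitary than in hypothalamus in both housings. In caged ducks the tissues overlapped in FPKM, as hypothalamus library 4 (1.93 FPKM) lay above pituitary library 2 (1.73 FPKM). The log2 fold change of GPX8 was 1.41 ± 0.43 in caged (adjusted p = 0.0205 in edgeR) and 1.88 ± 0.30 in floor-water ducks (adjusted p = 0.000561). Without caged hypothalamus library 2 the caged value was 1.27 (adjusted p = 0.0564). For GPX7 the floor-water value was 1.08 ± 0.36 (adjusted p = 0.0296) and the caged value 0.78 ± 0.39 (adjusted p = 0.121). The floor-water call for GPX7 was lost without floor-water hypothalamus library 2, 3 or 4 or floor-water pituitary library 2, with adjusted p between 0.0511 and 0.0978, and without the libraries over 4% other-tissue share (adjusted p = 0.154). It was also lost in limma, at 0.39 on log2(FPKM + 1) (adjusted p = 0.0721, or 0.0764 with no filter) and 0.80 on log2(FPKM + 0.1) (adjusted p = 0.0810). Without caged pituitary library 3, the lowest for GPX7, the caged value was 1.01 (adjusted p = 0.0233).

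The superoxide dismutases were lower in pituitary than in hypothalamus. SOD1, the copper and zinc enzyme of the cytosol, had the highest mean level of the 10 genes in the hypothalamus, although its range overlapped that of PRDX1 in caged ducks. In caged pituitary libraries 1 to 4 it stood at 353, 363, 390 and 493 FPKM, against 467, 410, 403 and 425 FPKM in floor-water ones. Hypothalamus libraries held 644, 947, 758 and 666 FPKM when caged, against 769, 863, 734 and 893 FPKM in floor-water ducks. Every pituitary library thus lay below every hypothalamus library, while housings overlapped in both tissues. The pituitary fell below the hypothalamus by 0.57 ± 0.18 in caged (adjusted p = 0.0244 in edgeR) and by 0.71 ± 0.14 in floor-water ducks (adjusted p = 0.00175), where ± is the SE of the log2 fold change. Without caged hypothalamus library 2, the highest of all for SOD1, the caged fold change was -0.43 (adjusted p = 0.0652).

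SOD2, the manganese enzyme of mitochondria, followed the same order of tissues. Pituitary libraries 1 to 4 held 105, 155, 128 and 146 FPKM when caged, against 170, 138, 133 and 157 FPKM in floor-water ducks. In hypothalamus libraries it was at 214, 229, 247 and 271 FPKM when caged, against 268, 258, 306 and 283 FPKM in floor-water ducks. In caged hypothalamus 3 of the 4 libraries were below all floor-water ones, and library 4 lay inside their range. The housing fold change in hypothalamus was -0.26 ± 0.10 (SE; 240 ± 24.4 and 279 ± 21.0 FPKM), given without a test. The pituitary fell below the hypothalamus by 0.51 ± 0.15 in caged (adjusted p = 0.0162 in edgeR) and by 0.68 ± 0.13 in floor-water ducks (adjusted p = 0.00159). Without the libraries whose share of the other tissue was over 4%, the caged tissue differences of SOD1 and SOD2 were -0.67 and -0.53 and no longer passed (adjusted p = 0.0730 and 0.0664).

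Catalase, which sits in peroxisomes, passed no test in edgeR with all libraries. CAT was at 16.0, 23.1, 17.0 and 8.39 FPKM in caged pituitary libraries 1 to 4, against 22.02, 24.2, 15.0 and 23.9 FPKM in floor-water ones. The hypothalamus held 23.4, 25.6, 32.6 and 31.6 FPKM in caged libraries, against 29.7, 22.1, 29.6 and 30.1 FPKM in floor-water libraries. Caged pituitary library 4, the one with the most GPX3, had the least CAT. The pituitary housing difference was -0.33 ± 0.25 on the log2 scale (adjusted p = 0.9996 in edgeR), with the interval of 2 SE on each side spanning -0.84 to 0.18. The tissue differences were -0.48 ± 0.26 in caged (adjusted p = 0.143) and -0.19 ± 0.14 in floor-water ducks (adjusted p = 0.279), and without caged pituitary library 2 the caged difference was -0.73 (adjusted p = 0.0370).

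**Figure D3:**
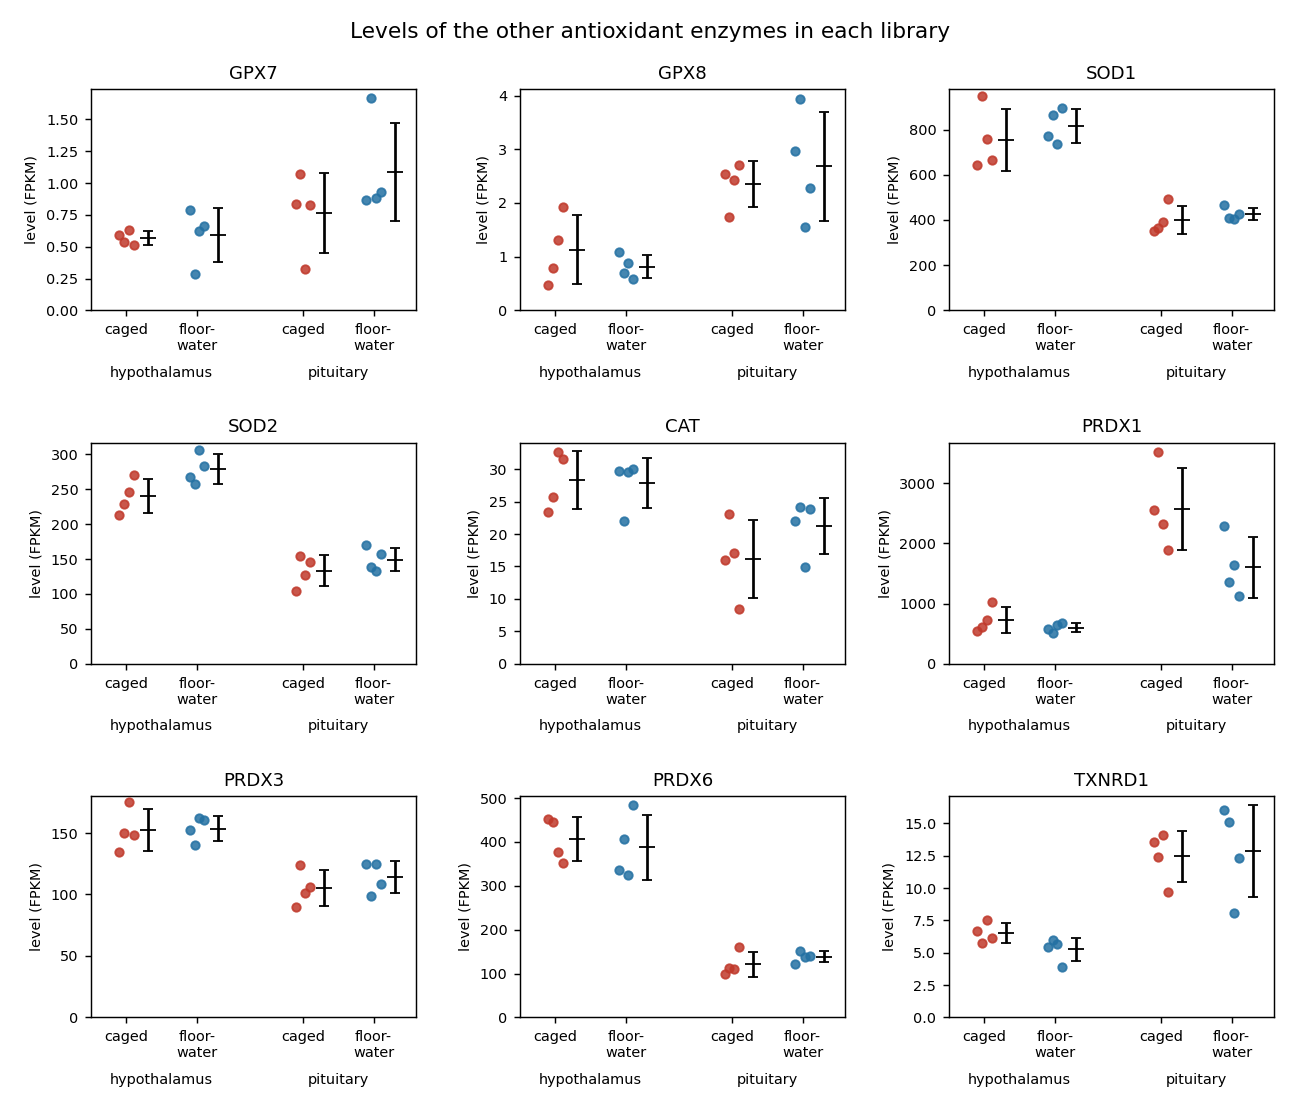
Levels in FPKM (vertical axes, each from 0) of the 9 enzymes other than GPX3 in each library of caged and floor-water hypothalamus and pituitary. Points are the 4 libraries of a group, and bars give the mean and SD. PRDX1 and TXNRD1 are higher in every pituitary library than in any hypothalamus library. GPX8 is on average higher in pituitary, with an overlap of tissues in caged ducks. SOD1, SOD2, PRDX3 and PRDX6 are higher in every hypothalamus library than in any pituitary library, although PRDX3 overlapped in scaled counts.

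PRDX1, a cytosolic peroxiredoxin, was the most abundant of the 10 genes in the pituitary. It stood at 2554, 3520, 2323 and 1896 FPKM in caged libraries against 2294, 1354, 1650 and 1120 FPKM in floor-water pituitary libraries 1 to 4. Caged libraries were on average higher, but the highest floor-water library lay above the lowest caged one. The levels averaged 2573 ± 687 FPKM in caged libraries against 1605 ± 508 FPKM in floor-water pituitary (SD, n = 4 each). The log2 fold change was 0.73 ± 0.26 (SE), with an adjusted p = 0.9996 in edgeR, and PRDX1 ranked 235 by p. The authors' deposited table gave a ratio of 1.60 with p = 0.00654 and q = 0.505. Caged library 2 and floor-water libraries 2 and 4, which carried 4.18%, 4.42% and 4.71% of the hypothalamus level, were the highest caged and the lowest 2 floor-water libraries for PRDX1, and without these 3 the fold change was 0.22 ± 0.21. In a fit with all libraries and each library's share as a covariate it was 0.72 ± 0.27. The part of the hypothalamus share in the PRDX1 difference was not tested.

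In hypothalamus PRDX1 was at 554, 611, 728 and 1022 FPKM in caged libraries 1 to 4, against 582, 514, 642 and 671 FPKM in floor-water libraries 1 to 4. Caged library 4, with the highest pituitary share, was the highest of the 8. The log2 fold change was 0.23 ± 0.18 with all libraries and 0.019 ± 0.12 without that library (SE). PRDX1 was higher in pituitary than in hypothalamus by 2.15 ± 0.25 in caged (adjusted p = 0.000162 in edgeR) and by 1.64 ± 0.23 in floor-water ducks (adjusted p = 0.000296), the largest tissue difference of the 10 genes in caged ducks.

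PRDX3, the mitochondrial peroxiredoxin, and PRDX6, which uses glutathione in place of thioredoxin, did not share this order of tissues. PRDX3 stood at 89.5, 124, 101 and 106 FPKM in caged pituitary libraries 1 to 4, against 125, 98.5, 125 and 108 FPKM in floor-water ones. Its hypothalamus level was 135, 150, 175 and 149 FPKM in caged libraries, against 152, 140, 162 and 161 FPKM in floor-water libraries. In FPKM the lowest hypothalamus library thus lay above the highest pituitary library. In scaled counts (CPM) the tissues overlapped in both housings. PRDX3 was at 170 to 299 CPM in floor-water pituitary against 244 to 272 CPM in floor-water hypothalamus. In caged ducks it was at 189 to 248 CPM in pituitary against 224 to 279 CPM in hypothalamus. Its tissue difference from counts was -0.19 ± 0.13 in caged (adjusted p = 0.230 in edgeR) and -0.19 ± 0.17 in floor-water ducks (adjusted p = 0.367), and without floor-water pituitary library 3 the floor-water value was -0.34 (adjusted p = 0.0494). On log2(FPKM + 1) in limma it was -0.53 and -0.43 and passed (adjusted p = 0.00627 and 0.00553). On that scale the median of all genes was itself at -0.21 in caged and -0.13 in floor-water ducks, against 0.065 in caged and 0.071 in floor-water ducks from the counts. Relative to that median PRDX3 lay at -0.26 in caged and floor-water ducks by counts, and at -0.32 in caged and -0.30 in floor-water ducks on FPKM.

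PRDX6 was lower in pituitary than in hypothalamus in both housings. Pituitary libraries 1 to 4 held 98.1, 114, 111 and 161 FPKM when caged, against 122, 152, 138 and 141 FPKM in floor-water ducks. In the hypothalamus it was at 453, 446, 377 and 353 FPKM in caged libraries, against 336, 407, 324 and 484 FPKM in floor-water libraries. Each pituitary library was therefore below each hypothalamus library by a wide margin. The pituitary fell below the hypothalamus by 1.40 ± 0.19 in caged (adjusted p = 0.000374 in edgeR) and by 1.26 ± 0.18 in floor-water ducks (adjusted p = 0.000273).

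TXNRD1, the cytosolic selenoenzyme that recharges thioredoxin, was higher in pituitary than in hypothalamus, as PRDX1 was. It was at 13.6, 12.4, 14.1 and 9.71 FPKM in caged libraries against 16.0, 15.1, 8.06 and 12.3 FPKM in floor-water pituitary libraries 1 to 4. Hypothalamus libraries held 6.68, 5.76, 7.53 and 6.18 FPKM when caged and 5.42, 5.98, 5.70 and 3.92 FPKM in floor-water ducks. The tissue difference was 1.27 ± 0.15 in caged (adjusted p = 0.000199 in edgeR) and 1.48 ± 0.19 in floor-water ducks (adjusted p = 0.000167). In hypothalamus the housing fold change was 0.26 ± 0.16, with overlapping libraries.

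**Figure D4:**
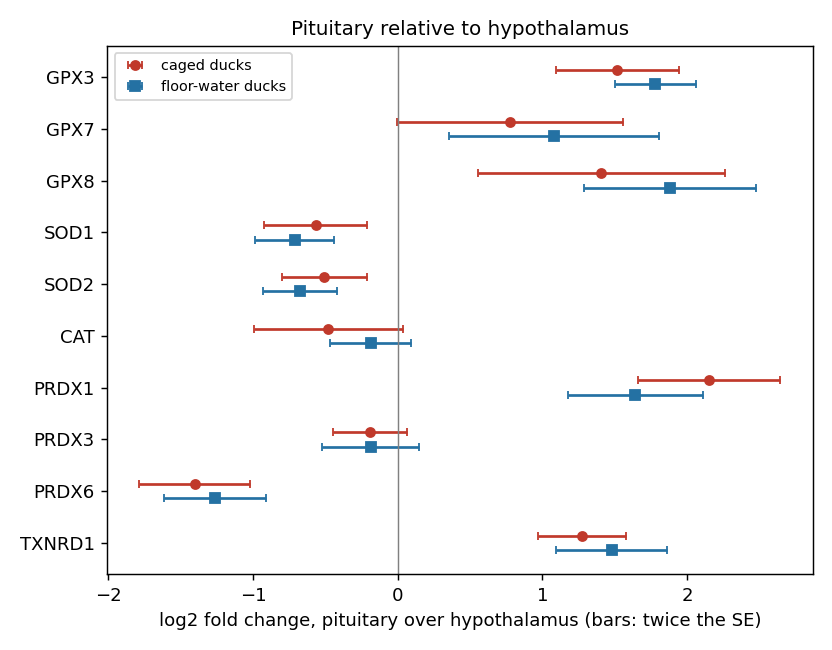
Log2 fold change of pituitary over hypothalamus from edgeR (horizontal axis) for the 10 enzymes in caged (circles) and floor-water ducks (squares); bars span 2 SE on each side. PRDX1, GPX3, GPX8 and TXNRD1 lie right of 0 and PRDX6, SOD1 and SOD2 left of 0 in both housings.

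Between tissues, 3 of the 9 members other than GPX3 were higher and 3 lower in pituitary in caged ducks, and 4 were higher and 3 lower in floor-water ducks. Over all genes tested, 54.1% passed in caged ducks (27.3% higher and 26.8% lower), and 56.3% in floor-water ducks (28.5% higher and 27.8% lower). With limma on log2(FPKM + 1) the split of higher and lower calls was 2718 and 5121 in caged and 3376 and 4724 in floor-water ducks, against 4323 and 4248 in caged and 4522 and 4413 in floor-water ducks in edgeR. The scaled count values (CPM) of the tissues did not overlap for 6 of these 9 members in caged and 7 in floor-water ducks, beside 53.4% and 55.8% of all genes. Tissue differences of this kind were thus common in the whole table. The median log2 fold change of the 9 was -0.19 in both housings, beside 0.065 and 0.071 over all genes. That median was the value of PRDX3, which passed in neither housing in edgeR with all libraries, and the other members lay on both sides of it. PRDX1 had the highest mean level of the 10 in pituitary and SOD1 in hypothalamus.

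Between housings, 0% of all genes passed in either tissue in edgeR, and in the pituitary, where the members were tested, 0 of 10 passed. At an unadjusted p below 0.05 there were 1463 of 15736 genes (9.3%) in the hypothalamus, where DESeq2 called 242. In the pituitary there were 670 of 15582 genes (4.3%), GPX3 and PRDX1 among them, and DESeq2 called 38 genes and no member. Pituitary CPM did not overlap between housings for 0 of the 10 members and 2.68% of 15565 genes. Fold changes above 0 were found for 3 members in the pituitary (49% of all genes), where the median of the 10 was -0.077 beside -0.0072 over all genes. In the hypothalamus they were found for 5 members (50.7% of all genes), with medians of -0.00013 over the 10 and 0.0043 over all genes. Described without a test, the hypothalamus fold changes were 0.41 ± 0.43 for GPX8, 0.02 ± 0.15 for PRDX6, -0.02 ± 0.13 for CAT, -0.06 ± 0.09 for PRDX3, -0.10 ± 0.33 for GPX7 and -0.16 ± 0.14 for SOD1 (SE). That of GPX8 was -0.39 without the caged libraries over 4% pituitary share and -0.13 with the share as a covariate. With that covariate SOD1 was at 0.056 and PRDX1 at -0.022, and without those libraries PRDX1 was at -0.069. Apart from GPX3 and PRDX1, the pituitary fold changes lay between -0.42 (GPX7) and 0.04 (TXNRD1). The intervals of 2 SE on each side ran from -0.36 to 0.30 for SOD1 and from -0.44 to 0.28 for PRDX3. That of GPX7 was the widest of the 10, from -1.21 to 0.38. Differences within these intervals could not be told from 0 with 4 libraries a group. The difference between tissues in the housing effect contains the hypothalamus contrast, so for all 10 members it is given as a description. For GPX8 the difference was -0.49 ± 0.51 (SE), and its direction turned to 0.61 without the libraries over 4% other-tissue share. For PRDX1 it was 0.49 ± 0.34. Of all 17010 genes tested for such a difference, 0% passed in edgeR, 1226 (7.21%) had an unadjusted p below 0.05 and DESeq2 called 130.

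**Figure D5:**
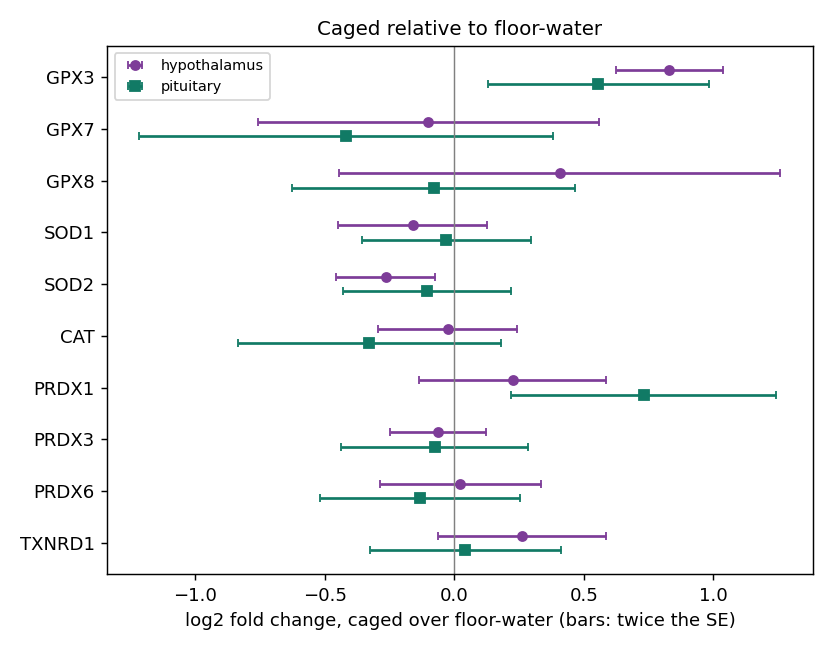
Log2 fold change of caged over floor-water from edgeR (horizontal axis) for the 10 enzymes in hypothalamus (circles) and pituitary (squares); bars span 2 SE on each side. GPX3 was chosen by its p-value in hypothalamus, where its fold change is 0.83, and its pituitary value is 0.56. The hypothalamus values are a description, since the members were chosen with those values known. In pituitary the bars of GPX3 and PRDX1 do not cross 0, but no gene passed between housings after adjustment in edgeR.

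Related genes were described in 8 lists. In neither tissue did any of their members pass between housings. In the tissue comparisons, the other peroxidases and dismutases had 3 of 6 genes higher in pituitary in both housings and 0 lower. Over all genes 23.3% were higher and 23.3% lower in both. GPX4 passed as lower in floor-water ducks only, and SOD3 in caged ducks only. The log2 fold change of GPX4 was -1.01 in floor-water (adjusted p = 0.000371 in edgeR) and -0.71 in caged ducks (adjusted p = 0.0592). That of SOD3 was -2.11 in caged (adjusted p = 0.00381) and 0.0051 in floor-water ducks (adjusted p = 0.990). PRDX4, the peroxiredoxin of the endoplasmic reticulum, was at 164 ± 33.5 FPKM in caged pituitary and 149 ± 13.9 FPKM in floor-water pituitary, while the hypothalamus held 75.1 ± 20.5 FPKM when caged and 69.2 ± 9.24 FPKM in floor-water ducks. GPX1, the cytosolic glutathione peroxidase, differed by 0.85 in each housing (adjusted p = 0.0235 in caged and 0.000449 in floor-water ducks, edgeR), and GPX2 by 2.38 and 2.17 in caged and floor-water ducks. The same list held PXDN, a matrix peroxidase, with the smallest p of the list between pituitary housings. It was at 0.409 ± 0.112 FPKM in caged libraries against 0.943 ± 0.265 FPKM in floor-water libraries (fold change -1.11 ± 0.30, edgeR adjusted p = 0.973). Between pituitary housings, 0 of 9 fibroblast and meningeal markers had a fold change above 0 (median -0.31), and 1 of 10 astrocyte and tanycyte markers (-0.52). So did 1 of 8 microglial and macrophage markers (-0.48) and 9 of 18 pituitary hormone and lineage markers (0.011). Over all genes it was 49%. The part of these cell types in the pituitary housing differences was not tested.

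Of 17 genes for glutathione synthesis and transfer, 7 were higher and 4 lower in pituitary in both housings. Among all genes 23.3% went each way. Glutathione reductase (GSR), which regenerates glutathione, was at 35.9 ± 2.84 FPKM in caged pituitary against 11.6 ± 2.65 FPKM in caged hypothalamus, and at 37.3 ± 4.28 FPKM in floor-water pituitary against 9.03 ± 0.716 FPKM in floor-water hypothalamus. MGST2, a microsomal glutathione transferase, was higher in pituitary by 3.52 and 6.65 in caged and floor-water ducks on the log2 scale. In caged hypothalamus libraries 1 to 4 it was at 3.89, 5.59, 4.47 and 27.1 FPKM, and library 4 had the highest pituitary share. Floor-water hypothalamus libraries held 0.576 to 1.80 FPKM. The part of the pituitary share in the smaller caged value was not tested. MGST3, another microsomal transferase, was lower, at 47.1 ± 4.56 FPKM in caged pituitary against 147.8 ± 13.4 FPKM in caged hypothalamus and 48.2 ± 4.93 FPKM in floor-water pituitary against 169.5 ± 26.8 FPKM in floor-water hypothalamus. GCLC, which catalyses the limiting step of glutathione synthesis, and the glutathione-cleaving GGT1 were also lower in pituitary, with fold changes of -0.88 and -4.14 in caged and -1.07 and -2.45 in floor-water ducks. Between pituitary housings the smallest p of the list belonged to CHAC1, which degrades glutathione, at 2.62 ± 0.474 FPKM in caged libraries against 5.75 ± 3.11 FPKM in floor-water libraries (edgeR adjusted p = 0.9996).

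Among 16 genes of the thioredoxin and glutaredoxin system, 3 were higher and 1 lower in pituitary in both housings. The share of all genes was 23.3% each way. Thioredoxin itself (TXN) was at 201 ± 9.82 FPKM in caged pituitary against 145 ± 11.99 FPKM in caged hypothalamus, and at 199 ± 15.8 FPKM in floor-water pituitary against 138 ± 8.01 FPKM in floor-water hypothalamus. The selenoprotein MSRB1, which repairs oxidised methionine, and SESN1 were higher in pituitary by 1.29 and 0.86 in caged and by 1.45 and 1.19 in floor-water ducks. The mitochondrial reductase TXNRD2 went the other way from TXNRD1, at 2.78 ± 0.671 and 2.44 ± 0.690 FPKM in caged and floor-water pituitary against 6.64 ± 0.505 and 6.18 ± 0.951 FPKM in hypothalamus. Between pituitary housings GLRX5, a mitochondrial glutaredoxin, had the smallest p of the list, at 29.2 ± 3.22 FPKM in caged libraries against 38.9 ± 2.04 FPKM in floor-water libraries (edgeR adjusted p = 0.9996).

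Of 23 genes for selenium handling and other selenoproteins, 5 were higher and 3 lower in pituitary in both housings. Among all genes 23.3% went each way. Selenoprotein P (SELENOP), which in mammals carries selenium in plasma and supplies the brain, was at 17.8 ± 7.40 and 30.1 ± 19.2 FPKM in caged and floor-water pituitary while the hypothalamus held 109 ± 13.1 FPKM when caged and 87.3 ± 21.3 FPKM in floor-water ducks, the opposite order of tissues to GPX3. LRP8, a receptor for selenoprotein P in mammalian brain, and SECISBP2L were also lower in pituitary, by log2 fold changes of -1.97 and -2.54 in caged and -2.50 and -3.09 in floor-water ducks. SELENOF, a selenoprotein of the endoplasmic reticulum, was higher in pituitary by 1.51 and 1.52 in caged and floor-water ducks. So were EEFSEC, the elongation factor for selenocysteine, and SEPHS1, by 0.97 and 1.20 in caged and by 0.96 and 0.99 in floor-water ducks. Between pituitary housings the smallest p belonged to the endocytic receptor LRP2, at 0.125 ± 0.0450 FPKM in caged libraries against 0.264 ± 0.0938 FPKM in floor-water libraries (edgeR adjusted p = 0.9996).

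Of 17 genes of the NRF2 pathway, the transcription factor route that switches on many antioxidant genes, 6 were higher and 4 lower in pituitary in both housings. The share of all genes was 23.3% each way. OSGIN1 and the export pump ABCC1 were higher in pituitary by 2.42 and 1.36 in caged and by 3.01 and 1.81 in floor-water ducks. The quinone reductases NQO1 and NQO2 were lower. NQO1 was listed at 0 in caged pituitary libraries 1 and 3, at 1.52 and 0.244 FPKM in caged libraries 2 and 4 and at 0.437 to 1.92 FPKM in floor-water pituitary libraries, while the hypothalamus held 21.7 to 35.4 FPKM in caged and 20.6 to 47.5 FPKM in floor-water libraries. The small Maf factor MAFF was lower too, with fold changes of -0.68 in caged and -1.34 in floor-water ducks. NQO2 had the smallest p of the list between pituitary housings, at 1.53, 1.08, 1.69 and 1.97 FPKM in caged libraries 1 to 4 against 3.34, 2.36, 1.93 and 3.48 FPKM in floor-water ones (edgeR adjusted p = 0.9996). In hypothalamus NQO2 was at 5.98, 3.61, 5.27 and 5.88 FPKM in caged libraries against 7.90, 7.68, 7.48 and 9.04 FPKM in floor-water libraries, so that the caged libraries were all lower there. It did not pass (edgeR adjusted p = 0.361). In scaled counts, 5.63% of all 15736 genes did not overlap between hypothalamus housings. One further entry of the list, higher in pituitary, carried a symbol and a description that disagreed and is not named.

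Of 13 genes that supply NADPH, 2 were higher and 3 lower in pituitary in both housings, beside 23.3% of all genes each way. PGLS and H6PD of the pentose phosphate route were higher, by 1.09 and 1.06 in caged and by 1.17 and 1.38 in floor-water ducks. The mitochondrial enzymes IDH2, NNT and NADK2 were lower, with fold changes of -1.09, -0.80 and -0.59 in caged and -0.97, -1.01 and -0.49 in floor-water ducks. TALDO1 had the smallest p of the list between pituitary housings, at 96.6 ± 16.9 FPKM in caged libraries against 86.6 ± 7.06 FPKM in floor-water libraries (edgeR adjusted p = 0.9996).

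Of 16 genes that generate oxidants and were tested in both tissue comparisons, 5 were higher and 3 lower in pituitary in both housings. Among all genes 23.3% went each way. ERO1A, which produces peroxide while forming disulphide bonds, was at 58.3 ± 13.5 and 44.2 ± 8.67 FPKM in caged and floor-water pituitary. The hypothalamus held 14.1 ± 5.68 FPKM of ERO1A when caged and 7.68 ± 1.92 FPKM in floor-water ducks. Caged hypothalamus libraries 1 to 4 were at 8.54, 11.8, 14.2 and 21.9 FPKM, and library 4 had the highest pituitary share. NOXA1, an activator of NADPH oxidase, and NOS2 were higher by 3.10 and 1.27 in caged and by 4.59 and 2.08 in floor-water ducks. NOXA1 was at 0.899, 2.22, 3.29 and 3.96 FPKM in caged hypothalamus libraries 1 to 4, against 0.617 to 1.23 FPKM in floor-water ones. The part of the pituitary share in these ERO1A and NOXA1 levels was not tested. Xanthine dehydrogenase (XDH), spermine oxidase (SMOX) and the neuronal nitric oxide synthase NOS1 were lower, by fold changes of -1.02, -0.69 and -4.23 in caged and -0.85, -0.94 and -3.09 in floor-water ducks. Between pituitary housings AOX1, an aldehyde oxidase, had the smallest p, at 2.33 ± 0.197 FPKM in caged libraries against 4.42 ± 1.70 FPKM in floor-water libraries (edgeR adjusted p = 0.973).

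Of the 6 metal-binding genes, only the copper chaperone ATOX1 was higher in pituitary in both housings, by 1.21 in caged and 1.301 in floor-water ducks. In this list 0 genes were lower in both, and the share of all genes was 23.3% each way. Transferrin (TF), which carries iron, had the smallest p of that list between pituitary housings, at 23.4 ± 14.9 FPKM in caged libraries against 71.0 ± 59.8 FPKM in floor-water libraries (edgeR adjusted p = 0.9996). In hypothalamus TF stood at 948 FPKM in caged library 2, the library high in transthyretin, against 107 to 147 FPKM in the other caged and 94.2 to 107 FPKM in the floor-water libraries.

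The genes whose levels ran most like GPX3 were ranked by Pearson correlation of log2 CPM over 9887 other genes with a symbol, as a description. Over all 16 libraries, which differ mainly by tissue, they were EFEMP1 (r = 0.97), TICAM1 (0.97), EBNA1BP2 (0.96), C21H20orf96 (0.96) and BSPRY (0.96). Within the 8 hypothalamus libraries they were RARRES1 (0.98), SERTAD4 (0.97), NOTCH2 (0.97), MYO7A (0.97) and NSUN6 (0.96). GPX3 was chosen by the housing contrast of these same libraries, so that ranking is bound to it. Within the 8 pituitary libraries the genes most like GPX3 were SMIM3 (0.98), DPY30 (0.95), DIABLO (0.94), BBIP1 (0.94) and FHOD1 (0.93). There GPX3 was at 2136 CPM in caged library 4 and at 869 to 1328 CPM in the others. The highest of 9887 correlations over 8 libraries can be this large by chance. No gene appeared in more than 1 of these groups of 5. Ranking by Spearman's rho shared 2, 0 and 1 of the 5 in the same order of library sets.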

How the data were processed

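RNA from hypothalamus and pituitary was sequenced in 16 libraries, 4 per tissue and housing. The authors deposited whole-number counts and FPKM per gene, per the file headers, and comparison tables with a fold (ratio of mean FPKM), its log2 value, a p-value and a q-value. Per the submitters' processing notes the tools were DESeq2, StringTie 1.3.4d, HISAT2 and cutadapt. Settings, genome build, annotation and strand use are not given in the sources used here, so no gene positions or sequences are printed. The FPKM table lists genes without signal at 0.0001. Reads of near-identical, overlapping or antisense genes may be split differently by other counters. The deposited descriptions call the PRDX1 protein partial and mark those of CAT and TXNRD1 as low quality. FPKM depends on transcript length, and the effect of these gene models on the order of levels between genes was not tested.

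Caged libraries were set against floor-water libraries within each tissue, and pituitary against hypothalamus within each housing, with edgeR 4.0.16 in R 4.3.3 (quasi-likelihood F test, TMM scaling, filterByExpr, Benjamini-Hochberg adjustment over all genes tested, threshold 0.05). Differences between tissues in the housing effect were fitted as an interaction, which for the members is a description. SEs come from the fold change and its F statistic. The code was checked on simulated counts. The alternatives included DESeq2 1.42.0, limma 3.58.1 run on log2 FPKM (pseudocount 1 or 0.1) with a mean FPKM filter of 0.5 or none, median ratio scaling, no filter, the title number as a block, all libraries in 1 fit, the share of the other tissue as a covariate, and each library left out. The newer quasi-likelihood fit, fits without libraries whose other-tissue share was over 4%, and a fit without caged hypothalamus libraries 2 and 4 were added after seeing the data.

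The share of the other tissue is the median, over genes with a median of at least 20 FPKM there and at least 50 times that of the own tissue, of a library's FPKM over the other tissue's mean. The members and lists were chosen with earlier results of these data known. Named were all members and, per list, at most 3 higher and 3 lower genes that passed in both tissue comparisons, and the smallest p between pituitary housings. GPX4 and SOD3 were named in addition. Likeness to GPX3 was ranked on log2 CPM where mean CPM reached 5. Gene identifiers were matched to the RefSeq reference table (a Pekin duck assembly) for names only (17816 matched, 537 gained a symbol). No libraries were duplicates (chi-square per degree of freedom 71.8 to 537 within groups). The labels do not tie libraries to birds or cages, so p-values measure the spread between libraries, which may be technical, and libraries may share a cage.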

Additional observations from a re-analysis of the deposited data

Results flagged for a closer look

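Of the 40 sets of 4 libraries examined (10 genes in 4 groups), 2 held a library far from the other 3, and chance flags about 1 in 20. GPX7 was at 1.67 FPKM in floor-water pituitary library 2, against 0.871 to 0.929 FPKM in the other floor-water pituitary libraries. CAT was at 22.1 FPKM in floor-water hypothalamus library 2, against 29.6 to 30.1 FPKM in the other floor-water hypothalamus libraries.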

How the results depend on the processing

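The hypothalamus fold change of GPX3 lay between 0.73 and 0.94 under all alternatives and its pituitary fold change between 0.32 and 0.67. Its tissue difference was smaller in limma on log2(FPKM + 1), at 1.13 in caged and 1.55 in floor-water ducks, against 1.52 and 1.78 in edgeR. DESeq2 called 242 genes between hypothalamus housings, 38 between pituitary housings and 130 for their difference, against 0 each in edgeR. All libraries in 1 fit gave 1 gene in hypothalamus and 3 in pituitary, the newer quasi-likelihood fit 2 in pituitary, the fit without caged hypothalamus libraries 2 and 4 gave 6 in hypothalamus, and the fit without libraries over 4% other-tissue share 1 for the difference. Leaving out single libraries gave 0 to 1 genes in hypothalamus, 0 to 2 in pituitary and 0 to 4 for the difference, 8139 to 8820 between tissues in floor-water ducks and 7329 to 8401 in caged ducks. The sign of several housing effects turned. In hypothalamus PRDX1 was at -0.022 and SOD1 at 0.056 with the share covariate, PRDX1 was at -0.069 and GPX8 at -0.39 without libraries over 4% share, and CAT, GPX7 and PRDX6, all between -0.099 and 0.025 with all libraries, turned in at least 1 fit. In the pituitary TXNRD1 was at -0.015 in limma on log2(FPKM + 1), with and without the filter, and at -0.013 with the pseudocount of 0.1, and GPX8 at 0.24 without libraries over 4% share. Leaving out single libraries gave -0.050 to 0.14 for TXNRD1, -0.19 to 0.093 for GPX8, -0.17 to 0.047 for SOD1 and -0.19 to 0.085 for PRDX3. For the difference between tissues, the fits without libraries over 4% share gave 0.61 for GPX8 and -0.027 for SOD1, and single libraries left out gave -0.020 to 0.26 for SOD1 and -0.14 to 0.13 for PRDX3. The cause of these changes was not tested. Limma on FPKM also called CAT lower in caged pituitary than in caged hypothalamus (-0.84, adjusted p = 0.0195). In no comparison did every same-numbered pair of libraries correlate above 0.1 in its deviations. Caged pituitary and hypothalamus came nearest, at 0.16, 0.073, 0.14 and 0.19, with 3 of 4 numbers correlating best with their own, a hint from the data and not from the design. The pairs of the other comparisons lay between -0.13 and 0.29, with 1 or 2 of 4 best with their own number. With the number as a replicate block, edgeR called 0 genes between housings in either tissue and 0 for the difference, 8429 between tissues in floor-water and 8200 in caged ducks. GPX7 in floor-water ducks (1.11, adjusted p = 0.0771) was the only member whose call changed.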

Other observations

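SOD3, the extracellular superoxide dismutase, was picked out after its values were seen. It stood at 11.4, 18.7, 13.2 and 29.98 FPKM in caged pituitary libraries 1 to 4, against 48.3, 74.1, 54.3 and 25.4 FPKM in floor-water pituitary libraries 1 to 4. In hypothalamus it was at 91.5, 176, 88.9 and 45.9 FPKM in caged libraries and at 65.9, 63.8, 38.5 and 65.1 FPKM in floor-water libraries. The 176 FPKM belonged to caged library 2, the library high in transthyretin. The part of transthyretin-rich tissue in the SOD3 differences was not tested. In each tissue caged library 4 lay inside the floor-water range, so that the groups overlapped. The log2 fold change of caged over floor-water was -1.39 ± 0.37 in pituitary (adjusted p = 0.972 in edgeR) and 0.75 ± 0.37 in hypothalamus (adjusted p = 0.574), and the difference between tissues was -2.14 ± 0.57 (adjusted p = 0.320). None of these passed the threshold.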
